A study of Homo sapiens with 12 samples.

Results

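The genes described here are 10 immediate early genes, EGR1, EGR2, EGR3, NR4A1, MYC, ZFP36, BTG2, IER2, IER3, and IER5, taken by gene symbol from a count table of 58735 genes. Each of the 10 symbols had 1 row in the table, and all 10 genes passed the filter on low counts in every comparison. They were followed by RNA sequencing in TIGK cells, a line of human gingival keratinocytes made immortal with hTERT (telomerase), at 48 mM glucose. In the Arg groups (Arg_24h and Arg_48h) the cells received 500 μM L-Arginine (Arg) for 24 or 48 h. In the untreated control groups (Con_24h and Con_48h) they were kept for the same times at the same glucose level without Arg, in a base medium that held none. The labels give 1 medium for all libraries, with supplements such as insulin, epinephrine, TGF-α, pituitary extract, and hydrocortisone. Each of the 4 groups had 3 libraries (A, B, and C), 12 in all. All cells were of a single immortalized line, and they were detached with TrypLE and washed before the RNA was taken. The labels and methods call A, B, and C replicates and do not say whether they were cultures of different days, so the p-values measure only the spread between these libraries. No group was sampled within the first hours after treatment.

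Immediate early genes are transcribed without new protein synthesis when a growth factor, a hormone, or stress reaches a cell. In the best known route, the ERK kinases phosphorylate ternary complex factors that sit with serum response factor (SRF) on a DNA element called the CArG box, and transcription of genes such as EGR1 starts within minutes. Their messages are mostly short-lived, and several of their products switch the response off again. In keratinocytes, signaling through the EGF receptor, for which TGF-α is a ligand, is a known inducer of these genes.

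The stretches of promoter below show where the element of that route was found right before a listed start. Each is the 250 bases before a RefSeq transcription start (GRCh38.p14), printed 5′ to 3′ on the strand of the gene, with CArG boxes in capitals. EGR1 lies at chr5:138465229-138465478 (plus strand), the third start of EGR2 at chr10:62816367-62816616 (minus strand), the first start of NR4A1 at chr12:52022582-52022831 (plus strand), and ZFP36 at chr19:39406597-39406846 (plus strand).
EGR1: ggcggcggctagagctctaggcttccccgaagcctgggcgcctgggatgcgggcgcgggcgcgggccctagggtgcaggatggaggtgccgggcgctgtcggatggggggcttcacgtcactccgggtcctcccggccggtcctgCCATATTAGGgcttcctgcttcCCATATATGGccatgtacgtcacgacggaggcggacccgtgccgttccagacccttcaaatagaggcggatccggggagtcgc
EGR2, the third start: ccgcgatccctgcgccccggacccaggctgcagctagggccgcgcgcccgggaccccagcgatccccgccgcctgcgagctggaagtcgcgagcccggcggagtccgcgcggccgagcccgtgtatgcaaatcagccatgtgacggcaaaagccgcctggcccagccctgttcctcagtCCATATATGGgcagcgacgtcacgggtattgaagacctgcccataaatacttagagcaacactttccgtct
NR4A1, the first start: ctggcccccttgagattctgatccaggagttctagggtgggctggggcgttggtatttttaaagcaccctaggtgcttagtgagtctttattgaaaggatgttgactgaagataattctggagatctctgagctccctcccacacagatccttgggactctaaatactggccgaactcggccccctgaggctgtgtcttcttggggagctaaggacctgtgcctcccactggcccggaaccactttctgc
ZFP36: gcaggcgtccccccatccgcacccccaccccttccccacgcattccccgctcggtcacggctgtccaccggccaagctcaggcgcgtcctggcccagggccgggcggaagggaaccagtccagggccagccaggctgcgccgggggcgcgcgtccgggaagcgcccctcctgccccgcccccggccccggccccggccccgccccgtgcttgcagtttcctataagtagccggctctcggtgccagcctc

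EGR1 held 2 CArG boxes, from 105 to 96 and from 83 to 74 bases before its start, and EGR2 held 1, from 71 to 62 bases before the third start listed for it. NR4A1 and ZFP36 are printed for contrast, since no CArG box was found in their windows. The windows cover only the starts listed for a gene, and boxes elsewhere in NR4A1 or ZFP36 were not searched for. Of the 10 genes, 7 had at least 1 entry, with 10 windows in all, and EGR3, MYC, and IER3 had none. A CArG box stood in 2 of these 10 windows and in 1.16% of all 35116 windows, searched on both strands. The motif CCGGAA is a form of the site to which ETS proteins such as the ternary complex factors bind. It stood in 3 of the 10 windows (IER5, the first start of NR4A1, and IER2) and in 14.5% of all. Other forms of that site were not searched for, so a lack of ETS sites in the other windows, such as that of EGR1, is not shown. The motif GCGNGGGCG, to which the EGR proteins themselves bind, stood in 2 windows, BTG2 with 2 copies and EGR1 with 1, and in 8.41% of all. TGACGTCA, the full cAMP response element, was in none of the 10 and in 1.65% of all, and TATAAA was in none and in 10.7% of all. Only these exact letters were searched for, so a lack of other forms of the cAMP response element or of TATA elements is not shown. None of the motifs searched for overlapped another in the windows of the 10 genes. A match describes letters only and was not tested as a binding site.

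The 10 genes are compact. In the Ensembl canonical transcript of GENCODE v44, 9 of them had at most 3 exons, which held for 19.4% of the 14218 genes tested at 24 h that had an exon count (median 8 exons). By the coordinates of the count table (GRCh38), 8 of them spanned under 7000 bases, against 17.8% of the tested genes, whose median span was 29284 bases. IER3 (ENSG00000137331) was the shortest, at chr6:30743199-30744554 on the minus strand. NR4A1 (ENSG00000123358) spanned chr12:52022832-52059507 on the plus strand, and MYC (ENSG00000136997) chr8:127735434-127741434 on the plus strand. EGR1 (ENSG00000120738) lies at chr5:138465490-138469315 on the plus strand. A gene on the opposite strand overlapped EGR3, NR4A1, IER2, and IER3, and since the strand setting of the counting is not given in the sources used here, reads of the 2 strands cannot be told apart there. The overlapping gene had 36 counts over the 12 libraries beside 120 for EGR3, 13 beside 1203 for NR4A1, 0 beside 15211 for IER2, and 5 beside 13823 for IER3.

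The libraries held between 16542243 and 19040964 counts. All 14 keratinocyte markers averaged at least 1 CPM (counts scaled to the size of the library) over the 12 libraries. Among them were KRT5, KRT14, and TP63, and the summed level of the 14 was 44666 to 56995 CPM in a library. The summed level of 9 fibroblast markers was 33.0 to 104 CPM, that of 5 melanocyte markers 1.03 to 3.06 CPM with TYR at 0, that of 7 immune cell markers 1.36 to 4.46 CPM with LYZ at 0, and that of 5 endothelial markers 0.757 to 6.52 CPM. Replicate B of the 48 h control stood apart: its pairs with A and C had the largest chi-square per degree of freedom of all replicate pairs (20.9 and 23.9, others 3.66 to 12.5), and its share of mitochondrial counts was 1.55%, against 0.906% and 0.707%. No 2 libraries of a group agreed within sampling noise.

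The 10 genes differed widely in level. In the 24 h control, in CPM per kilobase of exonic length, MYC was highest at 202 ± 42.6 (SD, n = 3), followed by IER3 at 78.7 ± 21.3, EGR1 at 76.3 ± 24.3, and ZFP36 at 48.9 ± 6.89. IER5 at 24.5 ± 3.80 and IER2 at 22.5 ± 3.48 came next, then BTG2 at 6.80 ± 1.23, NR4A1 at 1.02 ± 0.260, EGR2 at 0.343 ± 0.111, and EGR3 at 0.142 ± 0.0553. In this order the libraries overlapped between IER3 and EGR1, between EGR1 and ZFP36, and between IER5 and IER2, and between no other neighbors. With Arg at 48 h, MYC was at 103 ± 6.09 and EGR1 at 50.7 ± 5.19 on the same scale, and IER3, at 26.1 ± 2.19, stood below ZFP36, at 37.3 ± 2.81, without overlap. EGR2 had 7 to 32 counts in a library and EGR3 0 to 23, so their values carry a large counting error. These and the following levels are CPM after TMM normalization over the 12 libraries.

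**Figure D1:**
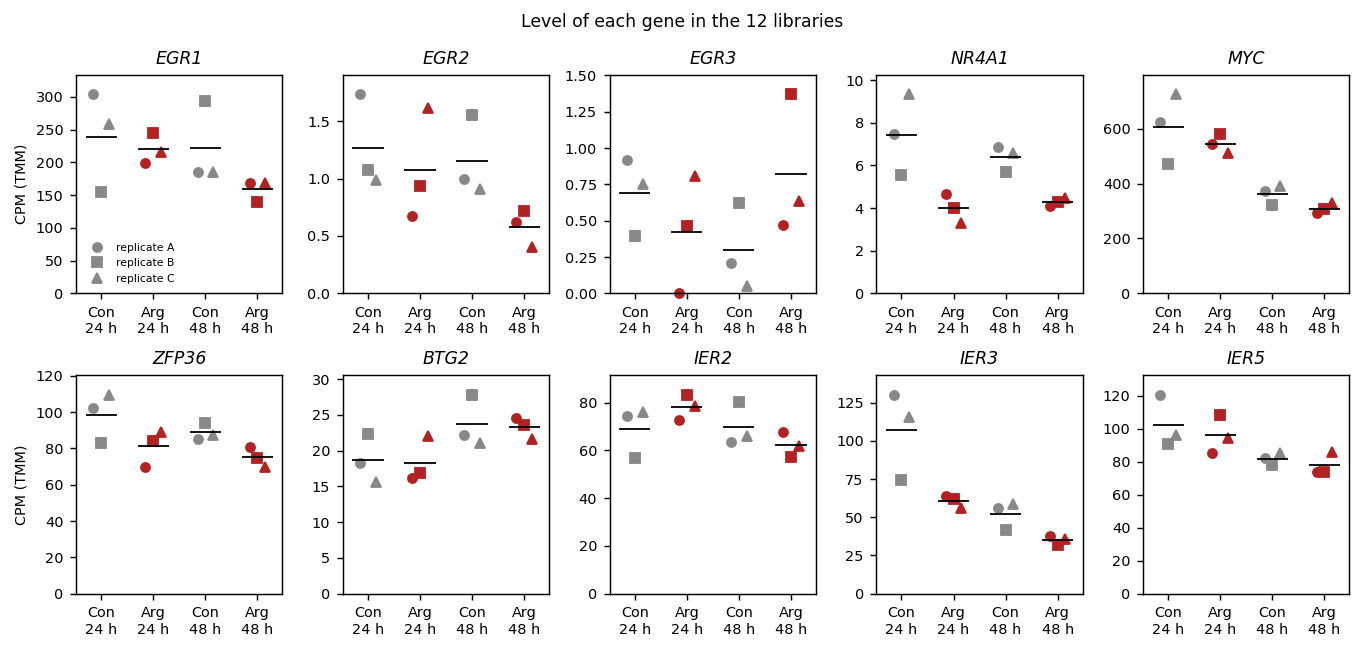
Level of each gene in CPM (vertical axis, linear from 0) in the 12 libraries, by group, with symbols for replicates A, B, and C and a line at the group mean (n = 3). IER3 and NR4A1 were lower with Arg in every library at both times, and replicate B of the 24 h control was the lowest of its group for 8 of the 10 genes.

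The first question was whether Arg changed these genes at 24 h. IER3 and NR4A1 fell, and none of the 10 rose, by edgeR's quasi-likelihood test at an adjusted p under 0.05. These 2 lower genes of 10 stand beside 3.84% of all 14279 tested genes called lower and 2.79% called higher. The median log2 fold change of the 10 genes was −0.20, against 0.0030 over all tested genes. At an unadjusted p under 0.05 there were 3 lower genes (11.9% of all tested) since ZFP36 joined them. All Arg libraries lay below all control libraries for 2 genes, again IER3 and NR4A1, and for 13.4% of all tested genes. In bulk RNA, fewer cells that express a gene and less RNA per cell cannot be told apart. Only 1 of the 7 immune cell markers averaged at least 1 CPM over the 12 libraries. The share of mitochondrial counts was 1.20 to 1.30% in the control and 0.624 to 0.802% in the Arg libraries, and the summed immune cell markers were 2.84 to 4.18 and 1.5 to 2.68 CPM. Their part in the result was not tested.

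IER3, an early gene whose product modulates cell survival and ERK signaling, was at 130, 74.5, and 116 CPM in control replicates A, B, and C and at 63.8, 61.7, and 56.3 CPM with Arg. The groups did not overlap, although control B was close to the Arg libraries. Its mean with Arg was 56.7% of control, a log2 fold change of −0.82 (SE 0.14, adjusted p = 0.00250 by edgeR's quasi-likelihood test). NR4A1, an orphan nuclear receptor, was at 7.48, 5.53, and 9.33 CPM in control and at 4.66, 4.02, and 3.28 CPM with Arg. Here, too, every Arg library was below every control library. Its log2 fold change was −0.90 (SE 0.23, adjusted p = 0.0238), and its Arg mean was 53.5% of control.

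The other transcription factors did not pass the test at 24 h. EGR1, a zinc finger activator that growth factors induce, was at 304, 155, and 259 CPM in control and at 199.7, 245, and 216 CPM with Arg. Control B was the lowest of all 6 libraries and control A the highest, so that the control enclosed the Arg group. Its log2 fold change was −0.12 (SE 0.16, adjusted p = 0.697). MYC, which drives growth and ribosome production, was at 626, 471, and 725 CPM in control and at 544, 581, and 512 CPM with Arg, and again control B was lowest and the groups overlapped (log2 fold change −0.16, SE 0.11, adjusted p = 0.444). EGR2, at 1.73, 1.07, and 0.985 CPM and with Arg at 0.674, 0.932, and 1.61 CPM, and EGR3, at 0.921, 0.395, and 0.753 CPM and with Arg at 0, 0.466, and 0.806 CPM, overlapped too. The 0 of EGR3 in Arg library A allows up to 3 counts (counting error only). That is 0.165 CPM by the raw total of that library, without the TMM factor used for the other levels.

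ZFP36, or tristetraprolin, binds AU-rich elements in short-lived messages and brings them to decay, partly through the CCR4-NOT deadenylase. It was at 102, 82.9, and 109.6 CPM in control and at 70.0, 84.3, and 89.0 CPM with Arg at 24 h. Control B fell among the Arg libraries, and the log2 fold change of −0.28 (SE 0.11) did not pass after adjustment (adjusted p = 0.136). BTG2, an antiproliferative partner of CCR4-NOT, was at 18.3, 22.3, and 15.6 CPM and with Arg at 16.1, 16.8, and 22.0 CPM, with full overlap (log2 fold change −0.03, adjusted p = 0.925). Among the other IER genes, which are regulators of early responses, IER2 was at 74.5, 56.9, and 76.1 CPM and with Arg at 72.8, 83.3, and 78.5 CPM. IER5 was at 121, 90.8, and 96.1 CPM and with Arg at 85.0, 109, and 94.6 CPM. Both overlapped between the groups, IER2 being the only gene of the 10 with an estimate above 0 (0.18, adjusted p = 0.347, and −0.10 for IER5, adjusted p = 0.653).

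**Figure D2:**
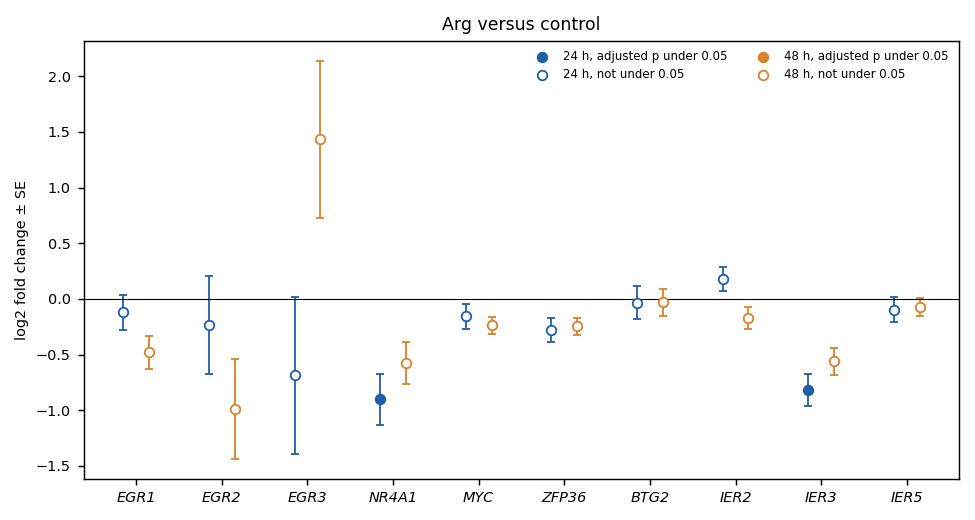
Log2 fold change of Arg over control (vertical axis, ± SE) for the 10 genes at 24 h (blue) and 48 h (orange), 3 libraries per group; filled points had an adjusted p under 0.05 by edgeR. Only IER3 and NR4A1 at 24 h are filled, and 9 of the 10 estimates were below 0 at each time.

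Control replicate B decided much of the 24 h result. It was the lowest library of its group for 8 of the 10 genes, a place it had for 37.1% of all tested genes, and the median coefficient of variation of the 10 genes in that group was 23.3%, against 11.0% over all tested genes. Without it, 5 of the 10 genes were called lower (6.02% of all tested): IER3, NR4A1, EGR1 (adjusted p = 0.019), MYC (adjusted p = 0.020), and ZFP36 (adjusted p = 0.017). IER3 passed whichever library was left out, with an adjusted p between 3.8e-07 and 0.023. NR4A1 did not pass without control A (0.083), control C (0.14), Arg B (0.090), or Arg C (0.11), where these values are adjusted p.

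**Figure D3:**
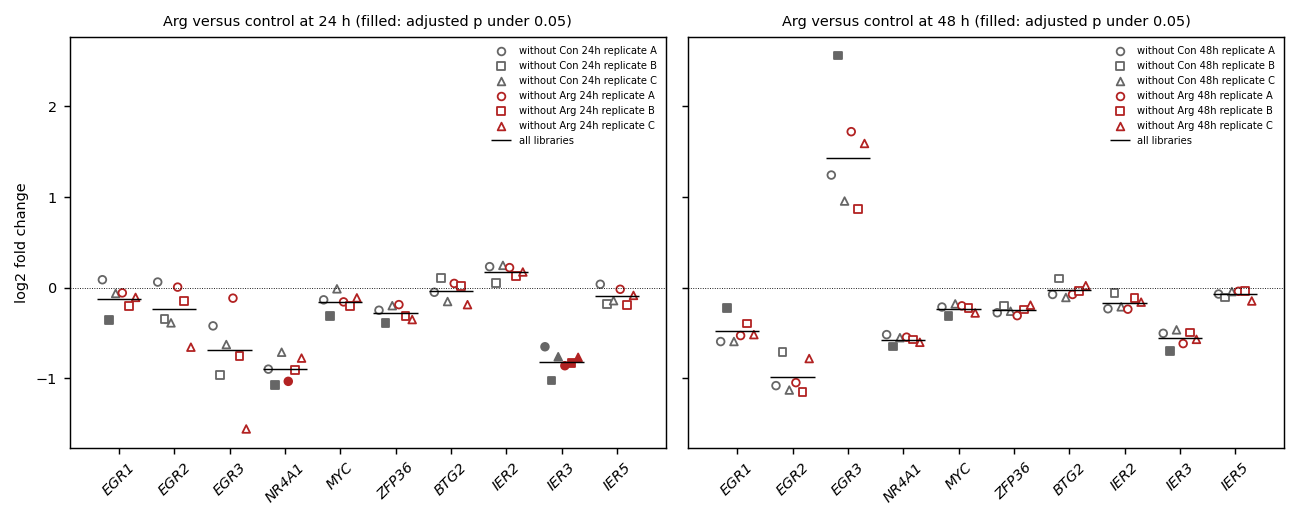
Log2 fold change of Arg over control (vertical axis) for the 10 genes at 24 h (left) and 48 h (right) with each library left out in turn, by symbol and color, and with all libraries (line); filled symbols had an adjusted p under 0.05 by edgeR. IER3 is filled in all 6 fits at 24 h, and at 48 h only the fit without control B has filled symbols, 5 of them.

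At 48 h, none of the 10 genes passed the adjusted threshold, which 0.117% of the 14562 tested genes did. At an unadjusted p under 0.05, 6 of the 10 were lower with Arg (EGR1, EGR2, NR4A1, MYC, ZFP36, and IER3) and none higher, against 7.49% of all tested genes called lower at that threshold. For 5 of them, all but MYC, every Arg library lay below every control library, which held for 8.51% of all tested genes. The median log2 fold change of the 10 genes was −0.24, against 0.0018 over all tested genes.

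IER3 was at 56.2, 41.4, and 58.9 CPM in the 48 h control and at 38.0, 32.2, and 36.1 CPM with Arg. The groups did not overlap, and the log2 fold change was −0.56 (SE 0.12, adjusted p = 0.133). It passed with DESeq2 (adjusted p = 0.0048), without the filter on low counts (3.3e-06), and with a replicate block (0.0066). NR4A1 was at 6.87, 5.71, and 6.60 CPM and with Arg at 4.12, 4.29, and 4.49 CPM, without overlap and with little spread in the Arg group (log2 fold change −0.57, SE 0.19, adjusted p = 0.228).

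EGR1 was at 185, 294, and 186 CPM in the 48 h control and at 169, 140.3, and 168 CPM with Arg. Control B was far above A and C, and A and C lay close to the upper Arg libraries (log2 fold change −0.48, SE 0.15, adjusted p = 0.219). ZFP36 was at 85.2, 94.0, and 87.5 CPM and with Arg at 80.9, 74.5, and 69.6 CPM, without overlap (−0.25, SE 0.08, adjusted p = 0.219). MYC was at 374, 323, and 392 CPM and with Arg at 292, 306, and 328 CPM, where Arg C was just above control B (−0.24, SE 0.08, adjusted p = 0.228).

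EGR2 was at 0.997, 1.56, and 0.912 CPM in the 48 h control and at 0.626, 0.714, and 0.403 CPM with Arg, which did not overlap (log2 fold change −0.99, SE 0.45, adjusted p = 0.368). EGR3 was the only gene with a higher estimate at 48 h, at 0.210, 0.622, and 0.0536 CPM and with Arg at 0.469, 1.37, and 0.633 CPM. The groups overlapped through control B (1.43, SE 0.71, adjusted p = 0.403). BTG2 at 22.2, 27.8, and 21.1 CPM and with Arg at 24.6, 23.6, and 21.7 CPM, IER2 at 63.7, 80.3, and 66.0 CPM and with Arg at 67.7, 57.3, and 61.8 CPM, and IER5 at 82.1, 77.8, and 85.3 CPM and with Arg at 73.8, 73.6, and 85.9 CPM overlapped as well.

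Control B of 48 h, the library that stood apart, was the highest of its group for 6 of the 10 genes (39.1% of all tested genes) and the lowest for the other 4, MYC, IER5, IER3, and NR4A1 (41.0%). Without it, 4 genes were called lower, NR4A1 (adjusted p = 0.031), MYC (0.00059), EGR1 (0.033), and IER3 (4.3e-06), and 1 was called higher, EGR3 (log2 fold change 2.56, adjusted p = 0.038). The EGR3 call rests on few reads, 4 and 1 counts in control libraries A and C and 9, 23, and 11 with Arg. In that fit 8.17% of all tested genes were called lower and 7.76% higher. EGR1 had its smallest estimate there, −0.22.

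The Arg effects at the 2 times were then compared directly. For none of the 10 genes did the effect at 48 h differ from that at 24 h at an adjusted p under 0.05, a difference that 0.0132% of the 15148 genes tested in all 12 libraries showed. IER2 was the only gene with an unadjusted p under 0.05 (6.87% of all tested genes): its effect was lower at 48 h than at 24 h by a log2 difference of −0.34 (SE 0.16, unadjusted p = 0.0387, adjusted p = 0.708). For IER3 the difference was 0.26 (SE 0.22), for NR4A1 0.33 (SE 0.30), for EGR1 −0.36 (SE 0.26), and for EGR3 2.13 (SE 1.13). That IER3 and NR4A1 passed at 24 h and not at 48 h is thus no measured difference between the times.

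The levels at 48 h were also set against those at 24 h, within each treatment. Without Arg, 3 of the 10 genes fell with time, where 1451 of all 14449 tested genes (10%) fell and 9.90% rose. MYC went from a mean of 607 ± 128 to 363 ± 36.0 CPM (SD, n = 3; log2 fold change −0.74, SE 0.13, adjusted p = 0.00418), and IER3 from 107 ± 28.9 to 52.2 ± 9.40 CPM (−1.03, SE 0.18, adjusted p = 0.00406). All 48 h libraries were below all 24 h libraries for both. IER5, from 102 ± 15.9 to 81.7 ± 3.77 CPM (−0.32, SE 0.10, adjusted p = 0.0475), passed narrowly, lost its call in 5 of the 6 fits that left out a library, and lost it when libraries were scaled by size only (0.091). BTG2, higher with time by 0.34 (SE 0.15, adjusted p = 0.134), passed with a replicate block (0.030). Without control B of 24 h, ZFP36 (adjusted p = 0.049, lower) and BTG2 (0.048, higher) passed too, beside 11.6% of all tested genes lower and 10.7% higher.

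With Arg, 5 genes fell and 1 rose, where 2012 of all 14398 tested genes (14%) fell and 14.3% rose. MYC went from 546 ± 34.3 to 309 ± 18.3 CPM (log2 fold change −0.82, SE 0.07, adjusted p = 6.4e-08), IER3 from 60.6 ± 3.87 to 35.4 ± 2.97 CPM (−0.77, SE 0.09, adjusted p = 3.4e-06), and EGR1 from 220.3 ± 23.1 to 159 ± 16.3 CPM (−0.47, SE 0.09, adjusted p = 0.00038). The 24 and 48 h libraries did not overlap for these or for IER2 (−0.33, SE 0.08, adjusted p = 0.00693), whose call was lost without Arg library B of 48 h (0.065). They overlapped for IER5 (−0.30, SE 0.09, adjusted p = 0.0168), which did not pass without Arg B of 24 h (0.10), Arg A of 48 h (0.079), or Arg B of 48 h (0.093). They also overlapped for BTG2, which rose from 18.3 ± 3.20 to 23.3 ± 1.48 CPM (0.35, SE 0.12, adjusted p = 0.0426). The call for BTG2 was lost in 5 of the 6 fits without a library, with a replicate block (0.056), and in a model of all 12 libraries (0.096), where EGR1 was lost as well (0.071). Whether the change with time differed between the treatments is the same test as that of the Arg effects at the 2 times, which neither EGR1 (adjusted p = 0.846) nor IER2 (0.708) passed.

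Library-size scaling alone changed the balance of the time comparisons over all genes, from 1431 higher and 1451 lower to 1845 and 1008 without Arg, and from 2060 and 2012 to 2568 and 1453 with Arg. Only 4 of the 9 fibroblast and 1 of the 5 endothelial markers averaged at least 1 CPM over the 12 libraries. DCN alone averaged 31.7 CPM in control at 24 h and 66.7 CPM at 48 h, and with Arg 19.5 and 59.4 CPM. The summed fibroblast markers were 33.0 to 57.7 CPM at 24 h and 75.5 to 104 CPM at 48 h, and the endothelial markers 0.757 to 3.12 and 4.09 to 6.52 CPM. Their part in the time comparisons was not tested. The 2 comparisons over time share no library with each other, but each shares its libraries with the Arg comparisons.

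**Figure D4:**
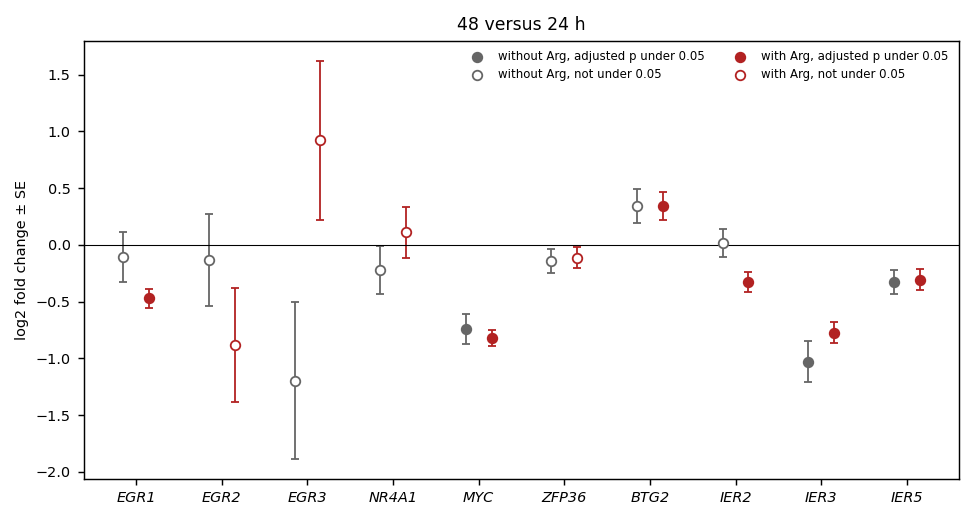
Log2 fold change of 48 h over 24 h (vertical axis, ± SE) for the 10 genes without Arg (grey) and with Arg (red), 3 libraries per group; filled points had an adjusted p under 0.05 by edgeR. MYC, IER3, and IER5 fell in both, EGR1 and IER2 passed with Arg and not without it, and BTG2 was the only gene called higher.

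The other genes of the pathway were followed as lists. Upstream, a list of 6 genes held SRF, the ternary complex factors ELK1, ELK3, and ELK4, and also MRTFA and MRTFB, which are not ternary complex factors. It had no call at either time, with medians of −0.01 and 0.08 on the log2 scale. At an unadjusted p under 0.05, ELK3 (−0.45) and ELK4 (−0.19) were lower at 24 h and MRTFB (0.23) was higher. Over all 14279 tested genes, 1705 were lower and 1548 higher at that threshold. SRF itself was at 0.07 (SE 0.10, adjusted p = 0.727) at 24 h and 0.14 (SE 0.08, adjusted p = 0.443) at 48 h. Of the 20 genes of the ERK cascade, from EGFR to the RSK kinases, only MAP2K1, which encodes MEK1, fell at 24 h (−0.48, SE 0.10, adjusted p = 0.00705), and none passed at 48 h. This 1 lower call of 20 is near the 3.84% of all tested genes called lower at 24 h. The medians of that list were −0.04 and 0.01. The corepressors of the EGR proteins, NAB1 (−0.09 and 0.19) and NAB2 (0.23 and 0.41), did not pass at 24 or 48 h. At 48 h every Arg library was above every control library for NAB2, which passed without the filter on low counts (adjusted p = 0.0011) and without control library B (0.00013), and at 24 h it passed without Arg library A (0.043). In the fit without control library B of 48 h, 7.76% of all tested genes were called higher. With other libraries left out, the adjusted p of NAB2 reached 0.695 at 24 h and 0.651 at 48 h.

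ERK feedback genes are a set that ERK signaling is known to induce. Of 15, 14 were tested and 10 fell at 24 h, with none higher and a median log2 fold change of −0.65, beside 3.84% of all tested genes lower and 2.79% higher. The difference between this list and the others was not tested. PHLDA1 was at 182 ± 37.0 CPM in control and 87.1 ± 11.9 CPM with Arg (SD, n = 3; −1.06, SE 0.13). DUSP4, a phosphatase that acts on ERK, changed by −1.11 (SE 0.18), and the ETS factors ETV4 and ETV5 by −0.72 (SE 0.13) and −0.73 (SE 0.11). In a model of all 12 libraries ETV4 (adjusted p = 0.062) and ETV5 (0.12) did not pass. At 48 h none of the list passed, with 7 of 14 lower at an unadjusted p under 0.05 (7.49% of all tested) and a median of −0.29. Without control B of 48 h all 4 of these named genes passed, with an adjusted p between 2.6e-09 (PHLDA1) and 1.4e-07 (ETV4). In that fit 8.17% of all tested genes were called lower. With the replicate block, which called 141 of all 14562 tested genes lower, PHLDA1 (0.0052) and DUSP4 (0.048) passed. The 4 were named for their small p at 24 h and do not stand for the whole list.

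Among 40 other immediate early genes, all tested, 18 fell and 2 rose at 24 h (3.84% and 2.79% of all tested), with a median of −0.44. FOS, which forms the AP-1 factor with JUN proteins, was at 162 ± 34.9 CPM in control and 39.0 ± 3.96 CPM with Arg (SD, n = 3; −2.05, SE 0.13). DUSP1, a phosphatase of MAP kinases, changed by −1.47 (SE 0.11), FOSB by −1.96 (SE 0.25), and RHOB, a small GTPase, by −0.68 (SE 0.10). At 48 h, where 0.117% of all tested genes passed, 2 of the 40 fell and none rose, FOS (−0.94, SE 0.09, adjusted p = 0.00051) and RHOB (−0.69, SE 0.09, adjusted p = 0.0116), and the median was −0.13. The median change of the 10 genes at 24 h, −0.20, was thus nearer to 0 than that of the other early genes, a description that was not tested.

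**Figure D5:**
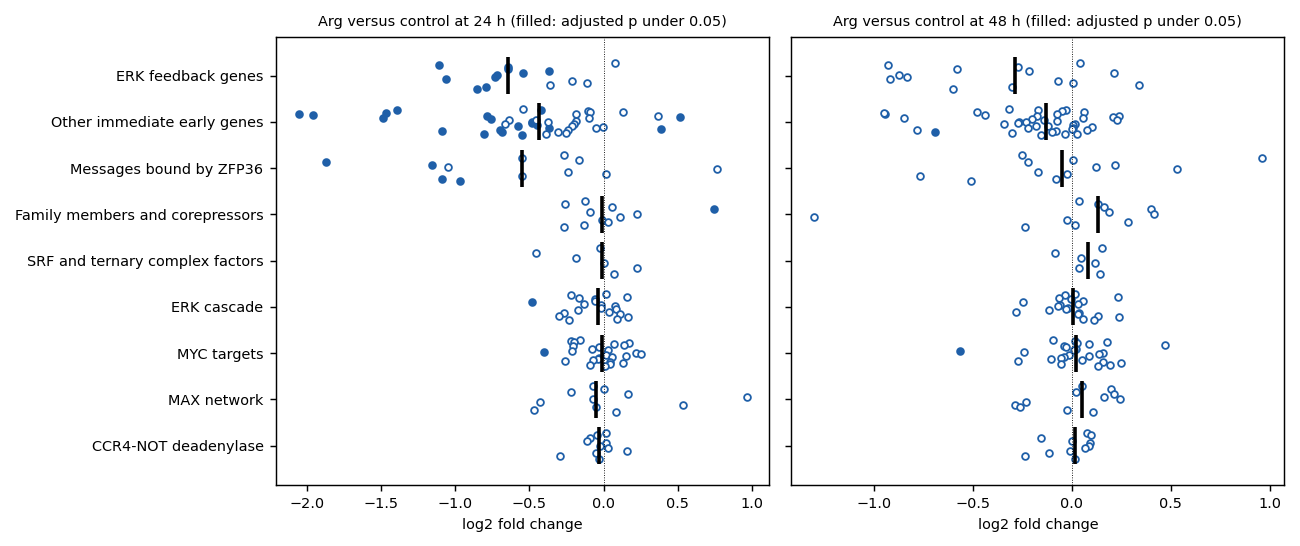
Log2 fold change of Arg over control (horizontal axis) for each tested gene of 9 lists at 24 h (left) and 48 h (right); filled points had an adjusted p under 0.05 by edgeR and vertical bars mark list medians. The ERK feedback genes and the other immediate early genes lie mostly left of 0 at 24 h, with medians of −0.65 and −0.44, while the ERK cascade and the SRF list center near 0.

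Downstream of the 10 genes, 12 of 16 messages that ZFP36 is known to bind were tested. At 24 h, 4 fell (3.84% of all tested genes) and none rose, with a median of −0.55: VEGFA, a growth factor for vessels (−0.97, SE 0.10), the cytokine IL1A (−1.16, SE 0.30), the chemokine CXCL8 (−1.87, SE 0.50), and PTGS2, a prostaglandin synthase (−1.09, SE 0.30). The groups overlapped for CXCL8, at 1.52 to 8.29 CPM in control and 0.874 to 2.98 CPM with Arg. They overlapped for PTGS2 as well, at 5.14 to 16.6 and 4.25 to 6.69 CPM, and did not for VEGFA and IL1A. CXCL8 (adjusted p = 0.18) and PTGS2 (0.18) did not pass with DESeq2, and PTGS2 is also among the other immediate early genes. None of the 12 passed at 48 h, and the median was −0.05. The 11 genes of the CCR4-NOT deadenylase had no call at either time, with medians of −0.03 and 0.02.

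Of 26 targets of MYC, LDHA fell at 24 h (−0.40, SE 0.08, adjusted p = 0.00518) and HSPE1 at 48 h (−0.56, SE 0.09, adjusted p = 0.0315), with list medians of −0.01 and 0.02. The 1 lower call of 26 at 24 h is near the 3.84% of all tested genes, and 0.117% of all passed at 48 h. The 11 genes of the MAX network, the partners and antagonists of MYC, had no call at either time (medians −0.05 and 0.05). Of 15 relatives and corepressors of the 10 genes, 11 were tested, and only MYCL rose at 24 h, where 2.79% of all tested genes did. Its log2 fold change was 0.74 (SE 0.17, adjusted p = 0.0121), a call lost in the model of all 12 libraries (0.058). Among the keratinocyte markers only ITGA6 fell at 24 h (−0.40), and among the fibroblast markers only DCN (−0.70), which did not pass with DESeq2 (0.16). Beside these single calls stands the 3.84% of all tested genes called lower. Of the melanocyte, immune, and endothelial markers, only 1 to 2 of each list were tested at either time, and none of those passed.

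The mean profile of the 10 genes was the mean of their standardized log2 CPM over the 12 libraries. ZFP36 (Pearson's r = 0.916) and EGR1 (0.872) followed it most closely, then EGR2 (0.814), IER3 (0.792), IER5 (0.741), MYC (0.699), IER2 (0.641), NR4A1 (0.528), and EGR3 (0.319), and BTG2 ran against it (−0.335). Each gene is part of the mean it is compared with. Of the other genes, KCNK2 (0.908), KAZN (0.903), ANGEL1 (0.900), MSX1 (0.896), and PIM1 (0.889) were most like it. PIM1, a kinase whose message is in the ZFP36 list, ran from 31.9 CPM in Arg library B at 48 h to 53.2 CPM in control library A at 24 h. All points share the same 12 libraries, which differ in treatment, time, and depth.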

How the data were processed

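The deposited raw counts per gene were made by the authors with fastp, STAR (GRCh38/hg38), and featureCounts, per the labels and the methods, without normalization. Versions, annotation release, and strand setting are not given in the sources used here. All columns were used and 0 were left out. The labels gave each library its treatment and time. Pairs of groups were compared with edgeR 4.0.16 in R 4.3.3 (TMM, edgeR's filter on low counts, quasi-likelihood test, Benjamini–Hochberg adjustment over all tested genes), without a block. The difference between times was an interaction in a model of 12 libraries. The SE is the absolute log2 fold change over the square root of F. Only the function that fits the comparisons was first run on simulated counts, in which 200 genes had been changed. The smallest exact permutation p for 3 against 3 libraries is 0.1. Alternatives were DESeq2 1.42.0, edgeR with the size factors of DESeq2, scaling by library size alone, no filter, at least 10 counts in every library, a replicate block, all 12 libraries in 1 model, and leaving out each library.

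The 10 genes and the 14 lists were chosen with earlier results of these data known. Named were all 10 genes, at most 4 genes per list with an adjusted p under 0.05 at 24 or 48 h (smallest p at 24 h first), SRF, NAB1, and NAB2, and the 5 genes most like the mean profile. Profiles used log2 CPM with a prior count of 2. Promoter windows are RefSeq sequences cut to the bases before the start. Depth was between 16542243 and 19040964 counts per library.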

Additional observations from a re-analysis of the deposited data

Results flagged for a closer look

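FOS, a transcription factor of the immediate early response that is not among the 10 genes, differed between the times in its response to Arg, by the interaction test in the model of 12 libraries. Its log2 fold change was −2.05 at 24 h and −0.94 at 48 h, and the difference, 48 h minus 24 h, was 1.11 (SE 0.17, adjusted p = 0.0229 by edgeR's quasi-likelihood test). In control it was at 162 ± 34.9 CPM at 24 h and 133 ± 2.08 CPM at 48 h, and with Arg at 39.0 ± 3.96 and 69.3 ± 8.95 CPM (SD, n = 3). With 1 library left out the difference ran from 0.95 to 1.27, and the adjusted p from 0.00050 to 0.18, with the call lost in 10 of 12 such fits and kept without control B of 24 h or control B of 48 h. None of the 10 genes differed between the times at that threshold.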

How the results depend on the processing

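At 24 h, 2 of the 10 genes were called under each alternative that kept all libraries, and 1 to 5 with a library left out (2 to 5 at an unadjusted p under 0.05). Over all genes, the fits with a library left out called 126 to 647 higher and 233 to 882 lower at 24 h. At 48 h the count of 0 became 1 with DESeq2, 3 without the filter (EGR1, MYC, and IER3), and 1 with the replicate block (IER3), and ran from 0 to 5 with a library left out (unadjusted, 4 to 6). Over all 14562 genes, 0 higher and 17 lower became 40 and 144 with DESeq2 and 43 and 141 with the block. Without the filter they became 199 and 374 of 27248 genes. Left-out libraries gave 0 to 1152 higher and 5 to 1213 lower over all genes. Over time, alternatives that kept all libraries gave 2 to 4 calls without Arg, where 3 were reported, and 4 to 6 with Arg, where 6 were, and left-out libraries gave 2 to 5 calls without Arg (unadjusted, 2 to 5) and 3 to 6 with Arg. Over all genes, those alternatives called 1405 to 1969 higher and 1008 to 2075 lower without Arg, and 1716 to 2568 and 1453 to 2011 with Arg. Left-out libraries gave 422 to 1585 and 406 to 1719 without Arg, and 1535 to 1838 and 1378 to 1915 with Arg. For the interaction, the unadjusted count of 1 became 3 without the filter and ran from 0 to 2 with a library left out. Over all genes the unadjusted counts were 464 higher and 576 lower of 15148, and 731 and 827 of 29789 without the filter. They ran from 405 to 705 higher and from 474 to 724 lower with a library left out. The cause of these shifts was not tested.

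The deviations of same-letter libraries correlated by −0.115 to 0.070 in the Arg comparisons and by −0.050 to −0.033 over time with Arg. Over time without Arg they correlated by 0.106 (A), 0.225 (B), and 0.069 (C), not all over 0.1, and no label ties the letters to a shared day. There the replicate block raised the calls over all genes from 1431 higher and 1451 lower to 1969 and 2075. It also raised those of Arg versus control at 48 h, from 0 higher and 17 lower to 43 and 141. At 24 h it lowered them from 398 and 549 to 379 and 545, and over time with Arg from 2060 and 2012 to 1926 and 1853. With the block, the interaction of BTG2 turned to −0.00047.

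With a library left out, estimates near 0 changed sign. At 24 h the log2 fold change ran from −0.36 to 0.087 for EGR1, from −0.66 to 0.061 for EGR2, from −0.19 to 0.11 for BTG2, from −0.19 to 0.037 for IER5, and from −0.053 to 0.15 for SRF. At 48 h it ran from −0.11 to 0.10 for BTG2, from −0.011 to 0.61 for IL1A, from −0.40 to 0.0055 for CXCL8, and from −0.17 to 0.071 for PTGS2. Over time without Arg it ran from −0.37 to 0.098 for EGR1, from −0.40 to 0.17 for EGR2, and from −0.11 to 0.087 for IER2, and with Arg from −0.015 to 0.24 for NR4A1. The interaction ran from −0.23 to 0.084 for MYC, from −0.063 to 0.15 for ZFP36, from −0.13 to 0.16 for BTG2, and from −0.11 to 0.12 for IER5. None of these estimates passed the test with all libraries. The calls for RHOB (adjusted p up to 0.097) and HSPE1 (up to 0.26) at 48 h, and for MAP2K1, MYCL, IL1A, CXCL8, PTGS2, ITGA6, and DCN at 24 h, were lost in at least 1 fit without a library. So were IER5 in both comparisons over time, and BTG2 and IER2 over time with Arg. Low counts limit EGR2 and EGR3.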
